A study of Mus musculus with 12 samples.

Results

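The proteins of the mitochondrial ribosome were followed at the transcript level in RAW264.7 cells, a macrophage line from a mouse tumour induced with Abelson leukemia virus. Members were taken by gene name, as every non-control probe on the array whose gene symbol starts with Mrpl or Mrps and a digit, and the brightest probe that passed the detection filter stood for its gene. The pattern matched 106 probes of 76 genes. All 76 genes passed the filter, which asks that in at least 1 group the scanner software flag all 3 arrays as well above background, and they are 76 of the 17596 genes tested. All 76 were in fact well above background on all 12 arrays, so the filter selected none of them through a single group. Of these, 47 encode proteins of the large subunit and 29 carry small subunit names. A hand-made classification listed 47 with a counterpart in bacterial ribosomes and 28 as specific to mitochondria. The remaining one, Mrps36, keeps its ribosomal name but is now known as a component of the 2-oxoglutarate dehydrogenase complex.

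The cells received recombinant FABP4, a fatty acid chaperone of adipocytes and macrophages that is also secreted, with or without palmitic acid, a saturated fatty acid. The 4 groups, each of 3 arrays, were control cells without either agent, cells with 200 nM FABP4, cells with 0.2 mM palmitic acid, and cells with 200 nM FABP4 plus 0.2 mM palmitic acid. All groups were harvested after 24 h in medium that contained 0.5% fatty acid-free bovine serum albumin. Serum at 10% is also recorded for all samples. All samples come from 1 cell line, and the labels do not say whether replicates were separate cultures, so p-values cover only the spread among these 12 arrays, part or all of which may be technical.

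The mitochondrial ribosome sits in the mitochondrial matrix and translates the few messenger RNAs of mitochondrial DNA, which encode core subunits of the respiratory chain and ATP synthase. Its ribosomal RNAs are encoded by mitochondrial DNA, whereas all of its proteins are encoded in the nucleus, made in the cytosol and imported. Many nuclear genes for mitochondrial proteins carry promoter motifs for NRF1, for GABP (an ETS family factor also called NRF-2) and for YY1. The arrays measured the nuclear transcripts, and neither protein levels nor mitochondrial translation was measured.

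The 76 genes are spread over 17 chromosomes by the probe positions in the scanner files (mouse build mm9). Chromosome 11 holds 10 of them, chromosome 17 holds 8 and chromosome 6 holds 7. Promoter sequences from RefSeq (build GRCm38.p6), running from 250 bases before to 50 bases after each start, matched 67 of the 76 genes by symbol and gave 73 promoters. Of the 73, 29 (39.7%) held at least 1 of 3 motif cores. The share was 8.83% of all 32851 promoters in the set and 15.9% of the 11054 promoters of genes tested here. Those 11054 promoters belong to 8701 of the 17596 genes tested. The YY1 core AAGATGGC occurred in 16.4% of the member promoters, against 4.34% of the promoters of tested genes and 2.75% of all promoters. The corresponding shares of the ETS core CCGGAAGT were 16.4%, 7.71% and 3.89%, and those of the NRF1 core GCATGCGC were 11.0%, 5.02% and 2.71%. The E-box CACGTG, in contrast, was present in 9.59% of the member promoters and 9.81% of those of tested genes. TATAAA was present in 6.85% and 7.84%. Both strands were searched and a promoter was counted once per motif. The NRF1 core can overlap its own reverse complement, and a match describes letters and shows no binding. Median GC content was 58.3% in the member promoters, 60.0% in those of tested genes and 52.7% in all promoters.

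The 5 promoters below show these motifs in place, from 120 bases before to 30 bases after the start, 5′ to 3′ on the gene's strand, with motif matches in capitals. Mrpl49 and Mrps26 are shown because they had 2 of the 3 smallest p-values among the members for palmitic acid without FABP4. Mrpl55, the remaining gene of those 3, held none of the 3 cores in its promoter and is not shown. The other promoters below were chosen because they held more than 1 kind of core or a cluster of matches. Mrpl49 (chr19:6057726-6057875, minus strand) has a YY1 core that starts 17 bases after the start, and Mrps26 (chr2:130563637-130563786, plus strand) an ETS core 15 bases before it. Mrpl32 (chr13:14613008-14613157, minus strand) has 3 separate stretches of the NRF1 core, the first of them made of overlapping matches on both strands. Mrpl33 (chr5:31613831-31613980, plus strand) has an NRF1 core 12 bases and an ETS core 3 bases before the start. Mrps27 (chr13:99344666-99344815, plus strand) has an ETS core 49 bases before and a YY1 core 15 bases after it.
Mrpl49: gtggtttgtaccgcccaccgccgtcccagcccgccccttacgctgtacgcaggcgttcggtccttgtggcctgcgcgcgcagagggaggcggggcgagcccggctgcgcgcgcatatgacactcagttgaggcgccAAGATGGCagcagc
Mrps26: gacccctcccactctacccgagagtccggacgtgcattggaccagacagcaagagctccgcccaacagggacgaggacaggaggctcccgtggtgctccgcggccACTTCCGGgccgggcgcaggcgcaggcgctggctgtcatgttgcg
Mrpl32: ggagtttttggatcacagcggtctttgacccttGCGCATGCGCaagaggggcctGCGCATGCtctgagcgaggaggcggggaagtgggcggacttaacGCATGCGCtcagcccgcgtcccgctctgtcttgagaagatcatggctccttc
Mrpl33: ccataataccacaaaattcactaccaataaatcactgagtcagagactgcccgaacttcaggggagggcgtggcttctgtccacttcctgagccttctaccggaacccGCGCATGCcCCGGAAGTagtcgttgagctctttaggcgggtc
Mrps27: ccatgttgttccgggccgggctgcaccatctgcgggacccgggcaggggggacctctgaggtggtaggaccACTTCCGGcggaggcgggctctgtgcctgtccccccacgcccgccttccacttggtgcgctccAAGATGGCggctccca

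Each array value is log2 of the processed intensity minus that array's 75th percentile over non-control spots, so a value of 0 is the array's 75th percentile and a difference of 1 is a doubling. Depth is set by the number of arrays, and between 42.8% and 46.7% of the non-control spots of an array were well above background. Macrophage markers were detected on all 12 arrays for 8 of 8 genes on the array. Of 5 genes each, 0 adipocyte, 1 fibroblast (Col1a2) and 2 lymphocyte markers (Cd3e, Cd79a) passed the filter, and 4, 3 and 2 in that order were above background on 0 arrays. The arrays came from 2 slides. FABP4 array 1 shared slide 1 with the control arrays, and the other 8 were on slide 2. On slide 2, FABP4 arrays 2 and 3 and palmitic acid arrays 1 and 2 lay in row 1, and palmitic acid array 3 and all 3 arrays with both agents lay in row 2. Palmitic acid without FABP4 is therefore compared wholly across slides, and FABP4 with palmitic acid wholly within slide 2.

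The mitochondrial ribosomal protein transcripts varied little over the 12 arrays. The median SD of a member over all arrays was 0.0698 on the log2 scale, against 0.118 for all genes detected on every array. These sets were not matched for intensity. The median SD within a group was 0.062. The steadiest member was Mrps10, a small subunit protein with a bacterial counterpart. Its log2 values were 4.16, 4.17 and 4.19 in control cells, 4.19, 4.22 and 4.26 with FABP4, 4.16, 4.16 and 4.24 with palmitic acid, and 4.23, 4.21 and 4.25 with both, an SD of 0.0384 over the 12 arrays. The most variable was Mrpl50, a large subunit protein without a bacterial counterpart, with an SD of 0.131. Its log2 values were 1.61, 1.47 and 1.56 in control cells, 1.61, 1.42 and 1.45 with FABP4, 1.40, 1.19 and 1.33 with palmitic acid, and 1.30, 1.35 and 1.57 with both. The 3 palmitic acid arrays of Mrpl50 were all below the 3 control arrays, while the 3 arrays with both agents ran from below the control range to inside it.

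The members were compared array by array as deviations from the mean of the 3 control arrays. The median deviation of the 76 members was -0.006, -0.011 and 0.024 on the control arrays and 0.065, -0.042 and -0.024 on the FABP4 arrays. It was -0.122, -0.072 and -0.015 on the palmitic acid arrays and 0.001, 0.023 and 0.006 on the arrays with both agents. Palmitic acid array 1 had the most members below the control mean, 67 of 76, and FABP4 array 1, the only FABP4 array on slide 1, had the fewest, 12 of 76. Members with large and small subunit names had close medians on every array, for example -0.123 and -0.122 on palmitic acid array 1. The deviations followed the position on slide 2 as well as the groups. The 4 arrays in row 1 of slide 2 had member medians of -0.122 to -0.024, all below the 4 arrays in row 2 of that slide, at -0.015 to 0.023. The 75th percentile intensities, by which each array was scaled, were 275.3 to 315.3 in row 1 and 254.6 to 276 in row 2 of slide 2. The part of the row in the results below was not tested beyond the fit with row as a block, which is given beside them.

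**Figure D1:**
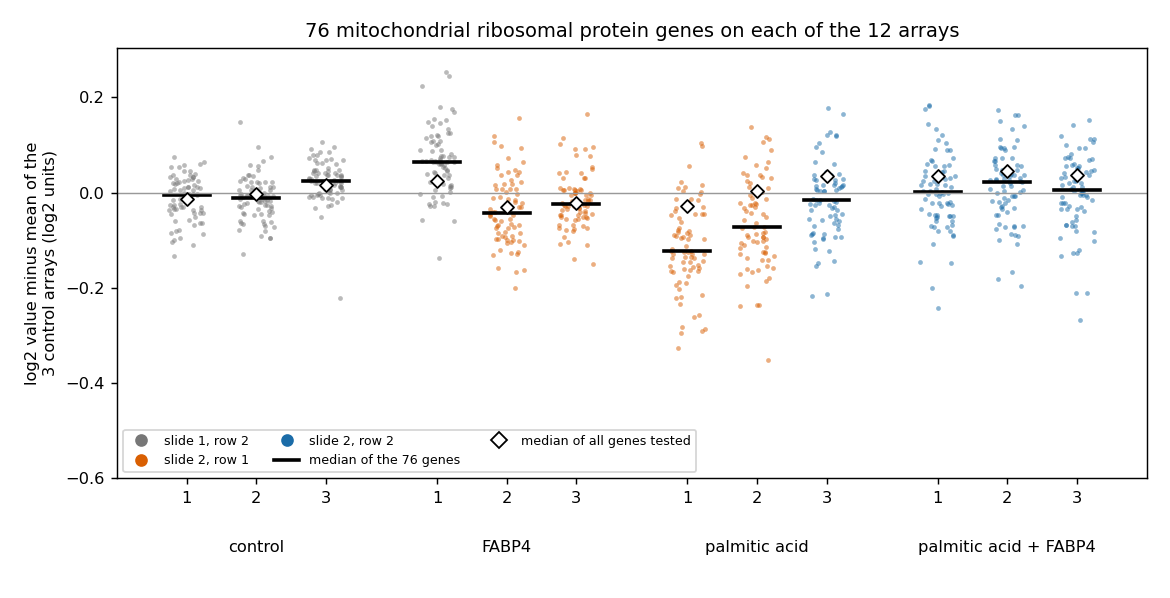
Each point is 1 of the 76 genes on 1 array, as its log2 value minus the mean of the 3 control arrays (vertical axis, log2 units), for arrays 1 to 3 of each group and coloured by slide and slide row. Black bars are medians of the 76 genes and open diamonds medians of all genes tested: the member median is lowest on palmitic acid arrays 1 and 2, at -0.122 and -0.072, and highest on FABP4 array 1, at 0.065.

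Palmitic acid without FABP4 was compared first, because it is the comparison with the largest number of called genes. Only 1 of the 76 members, Mrpl49, passed the test and fell; 75 did not pass. Among all genes tested, 8.61% were called in either direction and 3.73% were called lower (limma, Benjamini-Hochberg adjusted p under 0.05). The members leaned downward by a small amount: 62 of 76 (81.6%) had a log2 fold change below 0, against 49.9% of all genes, and the median was -0.068 against 0.001. Without any scaling between arrays both medians moved up together, to 0.105 and 0.174, so the members' median turned positive. This scaling shifts all genes of an array alike, so the distance of 0.069 between the medians could not change. Unadjusted p-values were under 0.05 for 14 members (13 lower, 1 higher), or 18.4%, against 26.5% of all genes.

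Mrpl49, a large subunit protein without a bacterial counterpart, had log2 values of 2.69, 2.76 and 2.77 in control cells, 2.74, 2.71 and 2.74 with FABP4, 2.45, 2.56 and 2.52 with palmitic acid, and 2.72, 2.76 and 2.61 with both agents. The 3 palmitic acid arrays were the 3 lowest of the 12 and overlapped no other group. Its log2 fold change for palmitic acid without FABP4 was -0.23 ± 0.053 (SE, n = 3 against 3; 95% confidence interval -0.35 to -0.11), a fold of 0.853, with a limma adjusted p of 0.0282. The call rested on all 6 arrays compared: leaving out any one of the control or palmitic acid arrays gave adjusted p from 0.0504 to 0.096, with log2 fold changes of -0.25 to -0.20. Over all 26 settings the log2 fold change ran from -0.25 to -0.06, the smallest without scaling between arrays, and the limma adjusted p from 0.0153 to 0.629. With slide as a fixed block, which compares the slides through the FABP4 arrays, it was -0.21 with a limma adjusted p of 0.35, and with slide row as a block -0.22 with an adjusted p of 0.13.

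Mrpl49 was measured by a pair of probes, both on the minus strand of chromosome 19 in mm9, of 60 bases each. The brighter one lies at chr19:6054680-6054739 and the other at chr19:6053882-6053941. The other probe gave -0.10 for palmitic acid without FABP4, and the mean of both gave -0.16 with a limma adjusted p of 0.132. The call therefore came from 1 of the 2 probes. Mrpl50 had the lowest point estimate of the members, -0.24 ± 0.086 (SE, n = 3 against 3; limma adjusted p = 0.115), on its brighter probe at chr4:49525602-49525661, and 0.00 on the other at chr4:49527089-49527148. The first 30 bases of each probe, 5′ to 3′, are shown so that the paired measurements can be told apart, with the brighter probe first.
Mrpl49 brighter probe: ttaagtacttaggatgaaagggctttgaga
Mrpl49 other probe: tcaccagccacatgtccaacccaccattaa
Mrpl50 brighter probe: aaagttccactgtgttttactccataagta
Mrpl50 other probe: aatgttcctgttcaagacaaatctaaattt
Over all members with further probes that passed the filter (27 probes of 24 genes), 25 of 27 had the same sign as the brighter probe for palmitic acid without FABP4, and the median difference between probes was 0.05. In no comparison did probes of a gene oppose each other with both unadjusted p-values under 0.05.

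Mrpl55, of the large subunit, and Mrps26, of the small subunit, followed Mrpl49 in order of p. Mrpl55 had log2 values of 3.71, 3.66 and 3.80 in control cells, 3.77, 3.68 and 3.76 with FABP4, 3.40, 3.49 and 3.64 with palmitic acid, and 3.68, 3.75 and 3.66 with both. Its palmitic acid arrays were below every array of the other groups, and its log2 fold change was -0.22 ± 0.067 (SE, n = 3 against 3; limma adjusted p = 0.0739). It passed the test with quantile normalization, with the 75th percentile taken over detected probes, with trended and robust moderation, and without palmitic acid array 3, the palmitic acid array in row 2. Mrps26 had log2 values of 5.09, 4.97 and 5.07 in control cells, 5.02, 5.01 and 5.08 with FABP4, 4.76, 4.88 and 4.92 with palmitic acid, and 4.98, 4.86 and 4.97 with both. The palmitic acid arrays of Mrps26 were below the control and FABP4 arrays and overlapped those with both agents. Its log2 fold change was -0.19 ± 0.059 (SE, n = 3 against 3; limma adjusted p = 0.0748), and it passed the test with trended and robust moderation and with the mean of its probes.

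Mrpl45 had the highest log2 fold change of the members. The protein lies at the exit of the peptide tunnel, where it tethers the ribosome to the inner membrane. Its log2 values were 4.12, 4.10 and 4.21 in control cells, 4.18, 4.13 and 4.14 with FABP4, 4.24, 4.23 and 4.32 with palmitic acid, and 4.32, 4.31 and 4.24 with both. All 6 arrays with palmitic acid were above all 6 arrays without it. The log2 fold change was 0.12 ± 0.049 without FABP4 (SE, n = 3 against 3; limma adjusted p = 0.143) and 0.14 ± 0.049 with it (limma adjusted p = 0.146), and the test was not passed in either, except without scaling between arrays, where the first value was 0.29.

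**Figure D2:**
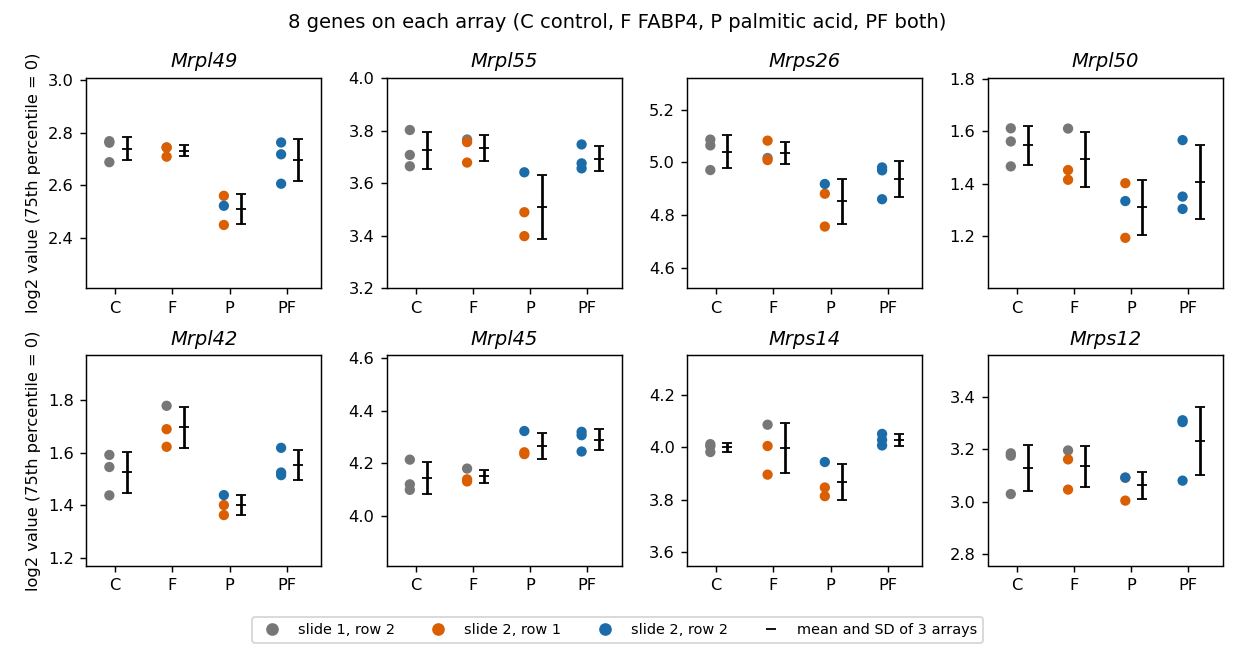
Log2 values (vertical axis, relative to each array's 75th percentile, each panel spanning 0.8 log2 units) of 8 genes on each of the 12 arrays, coloured by slide and row, with the mean and SD of 3 arrays beside the points. The palmitic acid arrays of Mrpl49 lie between 2.45 and 2.56 and those of all other groups between 2.61 and 2.77, whereas the groups of Mrps12 overlap.

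By name, 41 of 47 Mrpl members and 21 of 29 Mrps members had a log2 fold change below 0 for palmitic acid without FABP4. Their medians were -0.069 and -0.067. In the hand-made classification, members listed with a bacterial counterpart had a median of -0.065 and members listed as specific to mitochondria one of -0.086. Unadjusted p-values under 0.05 were found for 10 of 28 mitochondria-specific members, 9 of them lower and Mrpl45 higher, and for 4 of 47 members with a bacterial counterpart, all lower. These are 35.7% and 8.51% of the classes, beside 26.5% of all genes. The counts depend on the list, which placed Mrpl55 among the mitochondria-specific members, a placement that does not match its naming as a counterpart of a bacterial protein. Whether the classes differ was not tested. Members whose promoter held 1 of the 3 motif cores had a median of -0.076 (24 of 29 below 0), and those with none had -0.056 (29 of 38 below 0). Among members, 18 had all 3 palmitic acid arrays below all 3 control arrays (23.7%) and 1 had them above (1.32%), against 16.4% and 17.5% of all genes with complete values.

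In the fit without slide, the 95% confidence intervals of all 76 members for palmitic acid without FABP4 lay within 0.5 of 0 on the log2 scale. The lowest and highest bounds of any member were -0.43 and 0.23, or 1.35-fold lower and 1.18-fold higher. The groups lay on different slides, so these intervals do not cover a difference between slides. Of all genes tested, 71.9% had intervals within 0.5 of 0. The median SE of a member was 0.057 against 0.084 over all genes. For the 8 macrophage markers it was 0.058, so a small SE was not particular to the members. With slide as a fixed block the member median was 0.032 and that of all genes 0.039, and with slide row as a block they were -0.006 and 0.033. Leaving out palmitic acid array 1 moved the member median to -0.045, with 52 of 76 below 0.

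**Figure D3:**
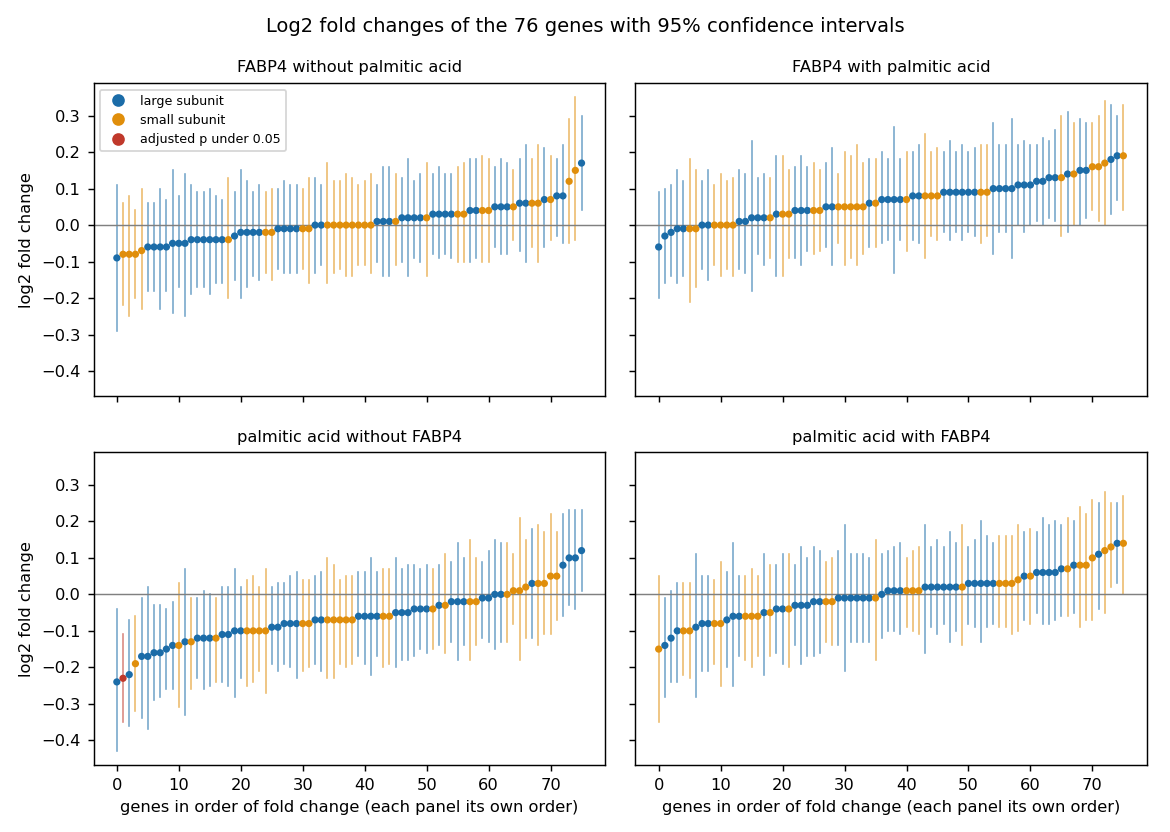
Log2 fold changes of the 76 genes with 95% confidence intervals (vertical axis) in 4 comparisons. Genes are ordered within each panel by fold change (horizontal axis) and coloured by the subunit in their name. The 1 red point, Mrpl49 for palmitic acid without FABP4 at -0.23, is the only member with an adjusted p under 0.05.

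With palmitic acid in the presence of FABP4 the members were spread about 0 and, as without FABP4, lay below the median of all genes. None of the 76 members passed the limma test, against 3.81% of all genes called, and unadjusted p-values under 0.05 were found for 3 members (3.95%) against 20.9% of all genes. The member median was 0.008 against 0.05 for all genes, and 37 of 76 members (48.7%) were below 0, against 36.7% of all genes. The sign of the member median changed with the scaling, to -0.048 with quantile normalization (64 of 76 below 0), and with slide row as a block, to -0.058 (62 of 76 below 0). Leaving out FABP4 array 2 gave -0.021, and leaving out FABP4 array 1 gave 0.037. Among the members 3 had all arrays with both agents above, and 4 below, the arrays with FABP4 alone (3.95% and 5.26%), against 19.3% and 6.96% of all genes. The lowest and highest bounds of the members' 95% confidence intervals were -0.35 and 0.28. On the arrays of slide 2 alone the member median was 0.037 and that of all genes 0.058, with no member called.

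After Mrpl45, given above, the smallest p-values were those of Mrps6 and Mrpl42. Mrps6, a small subunit protein with a bacterial counterpart, had log2 values of 4.17, 4.06 and 4.01 with FABP4 and 4.22, 4.23 and 4.19 with both agents, against 4.16, 4.13 and 4.19 in control cells and 4.16, 4.19 and 4.28 with palmitic acid. Its log2 fold change was 0.13 ± 0.053 (SE, n = 3 against 3; limma adjusted p = 0.195), with FABP4 array 1 close to the arrays with both agents and FABP4 arrays 2 and 3 lower. Mrpl42, specific to mitochondria, had 1.78, 1.62 and 1.69 with FABP4 and 1.53, 1.62 and 1.52 with both, a log2 fold change of -0.14 ± 0.059 (SE, n = 3 against 3; limma adjusted p = 0.207). The lowest point estimate was that of Mrps2, at -0.15, with values of 2.07, 1.94 and 1.93 with FABP4 and 1.83, 1.88 and 1.77 with both.

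In FABP4 without palmitic acid no member passed the test. Of all genes tested 3 (0.017%) passed the limma test, and none of the 76 members did; unadjusted p-values were under 0.05 for 1 member (1.32%) and for 7.23% of all genes. The member median was 0.002, with 36 of 76 below 0, and the median of all genes was -0.008. The 95% confidence intervals of the members reached -0.29 at the lowest and 0.35 at the highest, bounds of 1.22-fold lower and 1.27-fold higher. Without scaling the member median was 0.144, and with slide or slide row as a fixed block it was 0.065. Leaving out FABP4 array 1 turned it to -0.025, with 55 of 76 members below 0. FABP4 array 1 against the controls on slide 1, the only comparison of these groups within a slide, gave a member median of 0.065 from this 1 array, against 0.024 for all genes. All 3 FABP4 arrays were above all 3 control arrays for 1 member (1.32%) and below them for 2 (2.63%), Mrpl14 at -0.06 and Mrps18a at -0.08, against 4.01% and 6.41% of all genes.

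The member with the smallest p was Mrpl42, with log2 values of 1.44, 1.59 and 1.55 in control cells and 1.78, 1.62 and 1.69 with FABP4. All 3 FABP4 arrays were above the 3 control arrays, and the log2 fold change was 0.17 ± 0.059 (SE, n = 3 against 3; limma adjusted p = 0.587). With palmitic acid alone it had 1.36, 1.40 and 1.44, and with both agents 1.53, 1.62 and 1.52, so the palmitic acid arrays ranged from the lowest of the 12 up to the lowest control array. Mrps2, a small subunit protein with a bacterial counterpart, followed with 0.15 ± 0.088 (limma adjusted p = 0.775). Its control values of 1.90, 1.98 and 1.61 had an SD of 0.20, and the highest of them was above FABP4 arrays 2 and 3. Mrpl11, at the base of the stalk to which translation factors bind, gave 0.08 ± 0.047 (limma adjusted p = 0.79), and the lowest member was Mrpl38 at -0.09.

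FABP4 in the presence of palmitic acid gave the reverse lean, again without a call. None of the 76 members and none of the 17596 genes (0%) passed the limma test, while unadjusted p-values under 0.05 were found for 13 members (17.1%), all higher with FABP4, and for 5.88% of all genes. The member median was 0.067 against 0.035 for all genes, and 8 of 76 members (10.5%) were below 0, against 35.1% of all genes. Among the members 22 (28.9%) had all 3 arrays with both agents above all 3 arrays with palmitic acid alone and 0 had them below, against 11.4% and 3.1% of all genes. This comparison shares the palmitic acid arrays with that of palmitic acid without FABP4, so their opposite signs are not independent. All 3 arrays with both agents lay in row 2, with palmitic acid array 3. Leaving out palmitic acid array 1 gave a member median of 0.041 with 18 of 76 below 0. With slide row as a block the member median was 0.015 and that of all genes 0.008, with 34 of 76 members below 0. Without scaling it was -0.063, against -0.095 for all genes.

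Mrpl49 again had the smallest p among the members, at 0.19 ± 0.053 (SE, n = 3 against 3; limma adjusted p = 0.806); its other probe gave 0.04. Mrps14, a small subunit protein with a bacterial counterpart, had log2 values of 3.85, 3.81 and 3.94 with palmitic acid and 4.03, 4.01 and 4.05 with both agents, against 4.00, 3.98 and 4.01 in control cells and 4.09, 3.90 and 4.01 with FABP4. Its arrays with palmitic acid alone were lower than those with both, by 0.16 ± 0.056 (limma adjusted p = 0.806). Mrps18c, of the small subunit protein family that has several members in mammals, had 4.92, 4.84 and 5.04 with palmitic acid and 5.07, 5.11 and 5.18 with both, a log2 fold change of 0.19 ± 0.066 (limma adjusted p = 0.806). In Mrps18c as in Mrps14 palmitic acid array 3 was the highest of its group. The lowest member was Mrpl28 at -0.06, and the bounds of the members' 95% confidence intervals were -0.21 and 0.34.

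**Figure D4:**
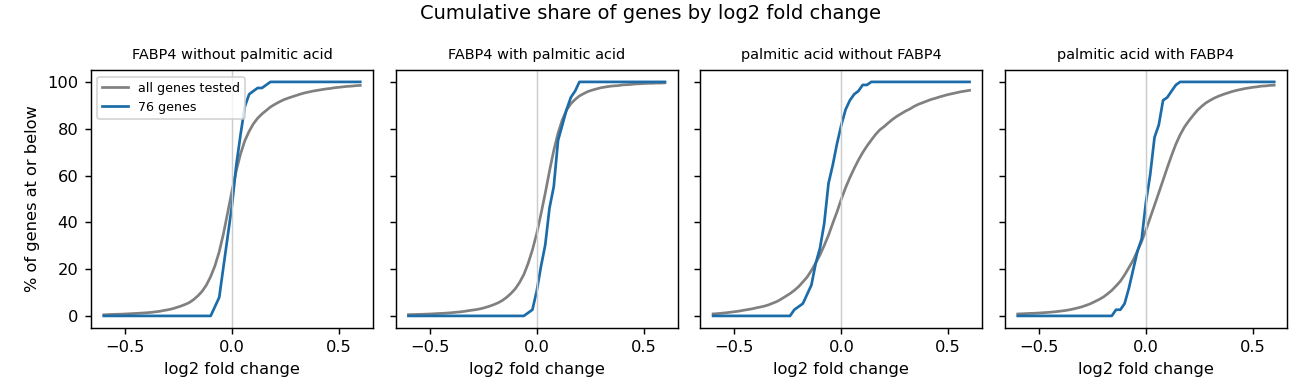
Share of genes (vertical axis, percent) at or below each log2 fold change (horizontal axis) for the 76 genes and for all 17596 genes tested, in 4 comparisons. The curve of the 76 genes is steeper in all 4 panels; for palmitic acid without FABP4, 81.6% of the members against 49.9% of all genes lie below 0.

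The interaction asked whether the palmitic acid difference was another one with FABP4 than without. No member and no gene (0% of 17596) passed the limma test, with unadjusted p-values under 0.05 for 1 member (1.32%) and for 6.92% of all genes. The member median was 0.071 against 0.043 for all genes, with 15 of 76 below 0. The smallest p belonged to Mrpl49, at 0.19 ± 0.075 (SE; limma adjusted p = 0.708), followed by Mrpl34 at 0.19 ± 0.091 and Mrps14 at 0.16 ± 0.079. The point estimates of the members ran from -0.16 ± 0.12 (Mrps2) to 0.21 ± 0.11 (Mrpl21). The 95% confidence intervals reached from -0.44 to 0.44, bounds of 1.36-fold in either direction. Mrpl49 was thus called in one palmitic acid comparison and not in the other, and the difference between them did not pass the test.

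Members with roles beyond structure were set side by side. Mrpl12, the stalk protein that has also been reported to bind the mitochondrial RNA polymerase, had log2 values of 4.20, 4.29 and 4.39 in control cells, 4.35, 4.22 and 4.24 with FABP4, 4.07, 4.29 and 4.20 with palmitic acid, and 4.33, 4.36 and 4.16 with both. All 4 groups of Mrpl12 overlapped. Mrpl41, which has also been linked to growth arrest and apoptosis, had 4.01, 3.97 and 4.02, then 4.07, 3.95 and 4.04, then 3.85, 3.87 and 4.00, and 4.00, 4.05 and 3.98 in the same order. Palmitic acid arrays 1 and 2, both in row 1, were the lowest for this gene and palmitic acid array 3 was within the control range. Mrpl44, a protein with a ribonuclease III-like domain, had 2.60, 2.62 and 2.56, then 2.74, 2.63 and 2.58, then 2.47, 2.57 and 2.68, and 2.59, 2.49 and 2.71, with overlap of all groups. Mrps12, the counterpart of the bacterial decoding-centre protein, had 3.03, 3.18 and 3.18, then 3.20, 3.05 and 3.16, then 3.00, 3.09 and 3.09, and 3.31, 3.30 and 3.08. Arrays 1 and 2 with both agents were its highest, while array 3 was at the level of palmitic acid alone. None of these 4 genes passed the limma test in any comparison.

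Genes that work with the mitochondrial ribosome were read from lists by role. The first list held further proteins of the ribosome that carry other names, and also Oxa1l, which is not a ribosomal protein. All 8 genes of this list passed the filter and none was called in any comparison. Their median for palmitic acid without FABP4 was -0.059, with 8 of 8 below 0. With slide as a fixed block that median was -0.054, with 5 of 8 below 0. The lowest were Ptcd3, a small subunit protein, at -0.21 (limma adjusted p = 0.0972) and Ict1, a large subunit protein that can release stalled peptides, at -0.20 (limma adjusted p = 0.0527). Dap3, the GTP-binding protein of the small subunit, was at -0.02. Of 14 translation factors on the array 13 were tested, of 25 assembly and ribosomal RNA modification factors 24, and of 11 genes of mitochondrial DNA transcription and maintenance 10. None of them was called in any comparison, and the 3 medians for palmitic acid without FABP4 were -0.086, -0.081 and -0.093. Unadjusted limma p-values under 0.05 in that comparison were found for 2, 5 and 2 genes of these lists, and for 3 of the 8 genes of the first list. These are 15.4%, 20.8%, 20% and 37.5%, beside 26.5% of all genes. With slide as a fixed block the 3 medians were 0.035, 0.039 and -0.084, so those of the translation and assembly factors changed sign. Tfam, which packages mitochondrial DNA and starts its transcription, was at 0.00 in that comparison and 0.01 for palmitic acid with FABP4.

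Regulators of nuclear genes for mitochondria held 1 called gene, for palmitic acid with FABP4, where 3.81% of all genes tested were called. Of 14 on the array 12 were tested, while the coactivator Ppargc1a was well above background on 0 arrays. Gabpb1, a subunit of the GABP factor that binds ETS motifs, fell with palmitic acid in the presence of FABP4, by 0.24 on the log2 scale (SE 0.058; limma adjusted p = 0.049), and was at -0.09 without FABP4 (limma adjusted p = 0.352). This call was kept in 7 of 27 settings, with limma adjusted p from 0.0127 to 0.633. It ended when any 1 array other than FABP4 array 3 was left out (log2 fold changes of -0.26 to -0.18, adjusted p 0.063 to 0.176), on the arrays of slide 2 alone (-0.18, adjusted p = 0.179) and with the mean of its probes (-0.14, adjusted p = 0.633). With slide as a fixed block Max, the dimerisation partner of Myc, was called instead in this comparison (0.23, limma adjusted p = 0.0357), at 0.16 with an adjusted p of 0.181 without the block. The DNA-binding subunit Gabpa was at 0.10 with FABP4 and -0.01 without it. Nrf1 and Yy1, which bind the other motif cores described above, were at 0.02 and -0.02 for palmitic acid without FABP4. The 12 tested regulators had a median of -0.119 in that comparison, with 10 of 12 below 0. Unadjusted limma p-values under 0.05 were found for 3 of them (25%), beside 26.5% of all genes. With slide as a fixed block their median was 0.111, with 2 of 12 below 0. The 12 members with an ETS core had a median of 0.003 for palmitic acid with FABP4, with 6 of 12 below 0 and none called. For palmitic acid without FABP4 their median was -0.082, with 11 of 12 below 0 and none called. Whether Gabpb1 is linked to these members was not tested.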

How the data were processed

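Total RNA (50 ng) was labelled with Cy3 for 1-colour Agilent arrays, 1 array per sample, per the labels' protocols. The deposited intensity values are per-spot processed signals, background-subtracted with Agilent Feature Extraction 10.7.3.1 per the file headers, on a linear scale and not normalized between arrays. The deposited value table was not used here. Probe positions are those of mm9 in the files; exon and UTR positions were not analysed here.

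From these values log2(processed signal) minus each array's 75th percentile over 59305 non-control spots was computed, with outlier spots left out. Spots were averaged to 55681 probes, and 23911 probes passed the detection filter. The brightest probe stood for each of 17596 genes. Group means over 12 arrays were fitted with limma 3.58.1 in R 4.3.3, two-sided, with Benjamini-Hochberg adjustment over all genes and a threshold of 0.05. Promoters were searched by exact string match on both strands.

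Members, companion lists and tests were chosen with earlier results of these data known. Genes named are called members or the 3 smallest p per comparison, the extremes of fold change and SD, genes with roles beyond structure, and called companions. Values of Ptcd3, Ict1, Dap3, Tfam, Max, Gabpa, Nrf1, Yy1, Ppargc1a, Mrpl14, Mrps18a, the probe pairs and the promoters shown were added after their values were seen. Gene symbols are those of the array; all 76 are RefSeq symbols too, and 73 array accessions matched it. The fit was run on simulated data with independent noise, no slide or row effect and planted changes larger than those of the members. That run does not cover differences between slides or rows, or changes as small as those seen here. Alternatives covered scaling, normexp (offset 50), filters, probe choice, slide, slide row, replicate number, moderation and each array left out.

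Same-numbered samples of different groups did not deviate together, so numbers were not used as pairs. One probe sequence and the result that needs it are not reported here.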

Additional observations from a re-analysis of the deposited data

How the results depend on the processing

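The members stayed without a call in the other 4 comparisons under every alternative run. For palmitic acid without FABP4 the 1 called member became 2 with the 75th percentile over detected probes, 4 with quantile normalization, 3 with trended and robust moderation and 3, all higher, without scaling. It became 0 with no filter on dim probes, with slide as a fixed or random block, with only the 2 groups compared and with slide row as a block (chosen after seeing the data), and 0 to 1 when 1 array was left out. Mrpl49 was called in 13 of 26 settings.

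Member medians that moved by more than the spread between replicates were as follows. For FABP4 without palmitic acid (0.002) they were 0.144 without scaling and 0.065 with slide or slide row as a fixed block. For FABP4 with palmitic acid (0.067) they were -0.063 without scaling and 0.015 with slide row. For palmitic acid without FABP4 (-0.068) they were 0.105 without scaling, 0.032 with slide and -0.006 with slide row. For palmitic acid with FABP4 (0.008) they were -0.048 with quantile normalization, -0.089 without scaling and -0.058 with slide row. For the interaction (0.071) they were 0.018 with the 75th percentile over detected probes, 0.005 with quantile normalization, 0.026 with the median over tested genes, -0.2 without scaling, 0.029 with normexp, 0.019 with slide and -0.057 with slide row. Smaller moves also turned the sign for palmitic acid with FABP4, to -0.029 with the 75th percentile over detected probes, -0.019 with the median over tested genes and -0.004 with normexp. With 1 array left out the medians ran from -0.025 to 0.026, 0.041 to 0.094, -0.091 to -0.045, -0.021 to 0.037 and 0.047 to 0.098 in the order given. The members' median minus that of all genes was above 0 in 26 of 26 and 27 of 27 settings for FABP4 without and with palmitic acid (0.003 to 0.04 and 0.008 to 0.073), below 0 in 26 of 26 and 27 of 27 for palmitic acid without and with FABP4 (-0.111 to -0.007 and -0.088 to -0.021), and above 0 in 22 of 25 for the interaction. Many of these settings could not change that difference. It is fixed under scaling by a constant per array, the replicate block, the choice of moderation and the removal of arrays from groups not compared. The counts of settings are therefore not counts of independent checks. The comparisons share arrays. The causes were not tested.

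With the replicate block, the replicate number as a term, 1 member stayed called for palmitic acid without FABP4 (Mrpl49, limma adjusted p = 0.0469) and 0 in the other comparisons, while the companion gene Gabpb1 lost its call for palmitic acid with FABP4 (limma adjusted p = 0.0941). Every group holds every replicate number, so this term could not change the medians, which stayed at 0.002, 0.067, -0.068, 0.008 and 0.071. Of 18 same-numbered pairs of samples, correlations of deviations ran from -0.08 to 0.17, and 1 was over 0.1. No within-slide fit was possible for palmitic acid without FABP4, whose groups lay on different slides. Slide 2 alone was fitted for the 2 comparisons with at least 2 arrays per group there.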
